A study of Equus caballus with 4 samples.

Results

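The genes described here are members of the transforming growth factor beta (TGF-beta) pathway: the ligands TGFB1, TGFB2 and TGFB3, the receptors TGFBR1 and TGFBR2, the signal transducers SMAD2 and SMAD3, the inhibitor SMAD7 and the target CTGF. They were found on the array by an exact match of the gene name in its annotation. This gave 27 probes of 7 of the 9 genes, out of 43603 gene probes. The match found no probe named TGFBR1 or SMAD7. The probe descriptions showed, after the files had been opened, that TGFBR1 stood under its older name ALK5 (6 probes) and SMAD7 under an Ensembl transcript identifier (2 probes), and these 8 probes are given apart from the 27.

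Differentiating equine satellite cells (ESC), the stem cells of skeletal muscle, came from the horse m. semitendinosus and were harvested on day 3 of differentiation. In the treated group 0.125 µM gamma-oryzanol (GO), the sterol esters of ferulic acid found in rice bran oil, was present for 24 h, and in the final 1 h the cells were also exposed to 3 mM hydrogen peroxide (H2O2). The control group had no GO but, per the study's methods, the same vehicle, DMSO. Whether it was exposed to H2O2 is unsaid in the labels, and the study's text describes control cultures given H2O2 only. Each of 4 Agilent arrays of 1 slide carried a treated sample in red (Cy5) and a control sample in green (Cy3), with no dye swap, so dye and treatment cannot be told apart. The design text counts 4 control replicates, although the control channel carries the same replicate number in the labels of all arrays. If the control RNA was the same on all arrays, the SDs and p-values leave out the spread between control cultures. According to the methods, 1 primary cell line was chosen, and nothing in the labels says that the 4 cultures came from separate animals, so the p-values measure the spread between these samples, which may be technical.

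TGF-beta ligands are secreted in a latent form, held by the matrix, and bind TGFBR2 once released. TGFBR2 then phosphorylates TGFBR1, which phosphorylates SMAD2 and SMAD3, and these move with SMAD4 to the nucleus to act on target genes, CTGF among them. SMAD7 blocks the receptor. In muscle the pathway is known for holding back the differentiation and fusion of myoblasts and for driving the deposition of matrix.

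The probes are 60 bases long, and where they lie decides what part of a transcript was read. The following sequences, 1 probe for each gene found by name, show a measured stretch of each. For SMAD2 an overlapping probe is shown, for the bases that it shares with 4 others, and not A_69_P003111, the probe that passed the test below. Each is written 5′ to 3′ as in the array files and has at least 1 reading frame without a stop codon. In SMAD2 and CTGF the capitals mark the bases that all 5 overlapping probes of the gene share, 56 in SMAD2 and 53 in CTGF.
TGFB1 A_69_P001041: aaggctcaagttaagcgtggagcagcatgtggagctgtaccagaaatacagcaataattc
TGFB2 A_69_P008512: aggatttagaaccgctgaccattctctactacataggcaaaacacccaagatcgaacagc
TGFB3 A_69_P022961: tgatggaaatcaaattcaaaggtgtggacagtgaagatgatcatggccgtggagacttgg
TGFBR2 A_69_P004706: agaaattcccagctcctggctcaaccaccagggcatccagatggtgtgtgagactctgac
SMAD2 A_69_P004670: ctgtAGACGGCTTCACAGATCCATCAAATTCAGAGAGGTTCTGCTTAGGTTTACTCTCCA
SMAD3 A_69_P004671: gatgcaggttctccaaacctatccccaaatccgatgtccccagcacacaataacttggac
CTGF A_69_P049850: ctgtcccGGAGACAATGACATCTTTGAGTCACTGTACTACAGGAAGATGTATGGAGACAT
In the array annotation, which names the horse build EquCab1, all of these probes lie on the minus strand. Some cover more genome than their own length, since the listed start and end enclose an intron: the TGFB1 probe lies at chr10:11890705-11892011, the TGFB3 probe at chr24:20972377-20974213, the TGFBR2 probe at chr16:53264490-53267432 and the SMAD3 probe at chr1:122732654-122745080. The TGFB2 probe lies at chr30:4092948-4093007, the SMAD2 probe at chr8:59887978-59888037 and the CTGF probe at chr10:72916497-72916556. No probe was assigned to an exon or UTR, because an annotation of EquCab1 was not used here.

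All differences of these genes were small. Of the 27 probes, 23 were bright enough to be tested, and 2 of them passed an adjusted p of 0.05 in limma: the TGFB1 probe and 1 of the 6 SMAD2 probes, both higher in the treated cells. That is 8.70% of the tested probes, against 17.1% of all 24230 tested probes on the array, of which 9.49% passed as higher and 7.59% as lower. A fold change of at least 1.3, the limit in the study's methods, was passed by 0 of the 23, against 1.42% of all. The study's own list of genes was given at a lower limit than this. An unadjusted p under 0.05 was seen at 7 of the 23 (30.4%), against 36.7% of all. The median log2 ratio of the 23 was -0.04, with 10 means above 0, against a median of 0.00 over all tested probes. The SD over arrays was 0.129 in the median for the 23 and 0.0934 for all. The log2 ratio is that of the normalised red over the green signal: above 0 the treated cells were the brighter. Raw signals below are scanner units of a single probe and are not compared between probes. The local background around the 27 probes was 29 to 63 in green and 39 to 144.5 in red.

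**Figure D1:**
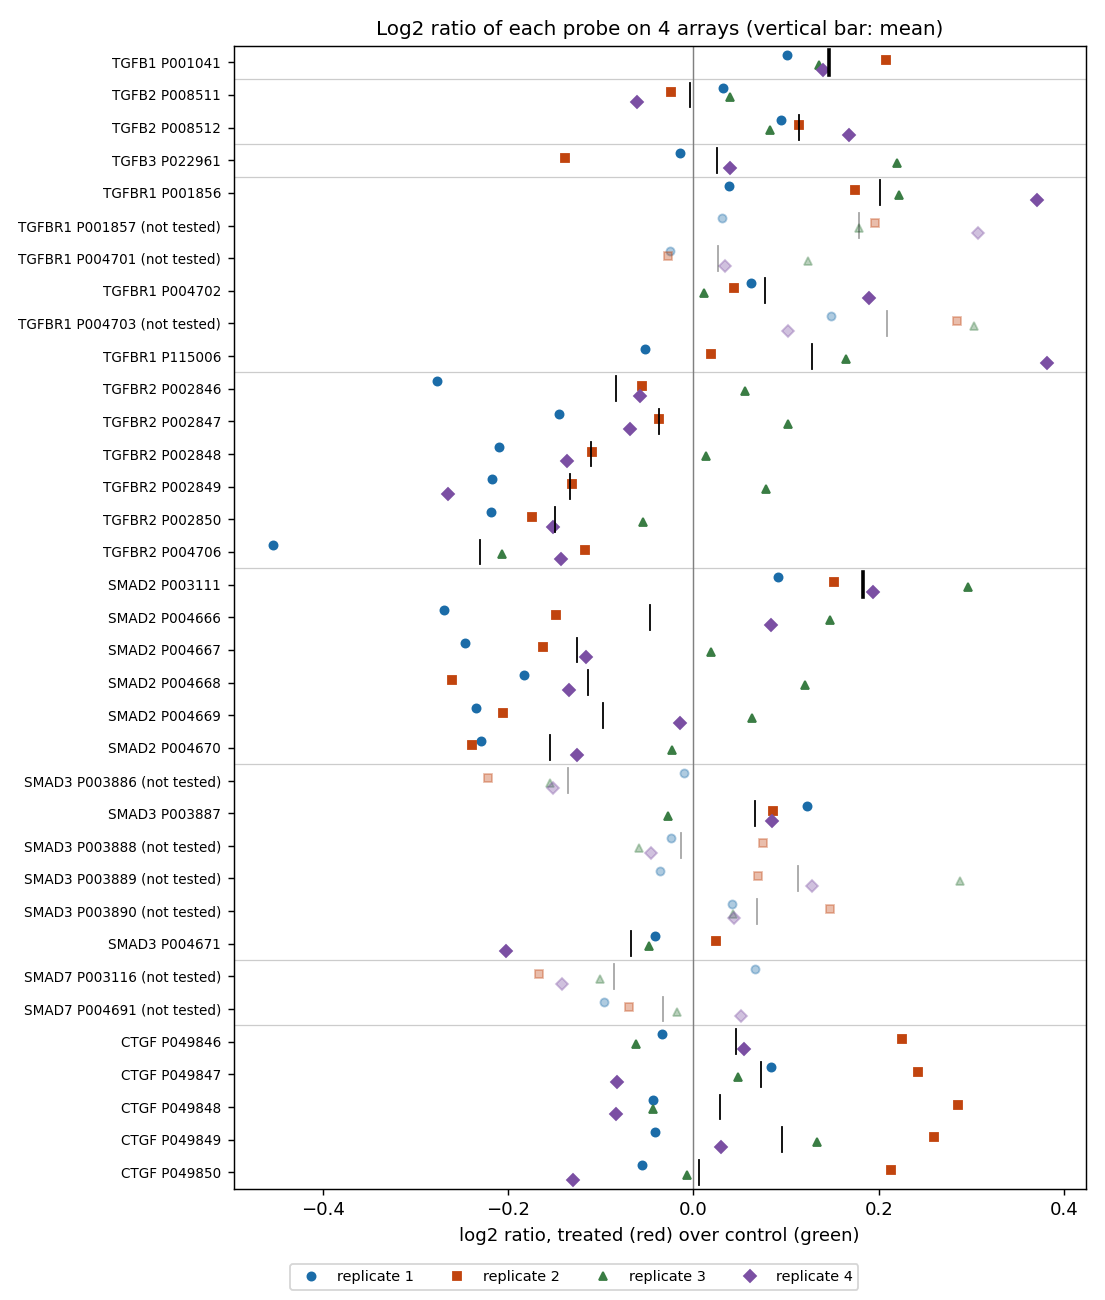
Log2 ratio (treated over control) of the 27 probes of 7 genes and of the 8 probes of TGFBR1 and SMAD7 on each of the 4 arrays; the vertical bar is the mean, thick where the adjusted p was under 0.05, and pale symbols mark probes too dim to be tested. The TGFB1 probe and the SMAD2 probe A_69_P003111 lie above 0 on all arrays, the TGFBR2 means all lie below 0, and CTGF is highest on replicate 2 with each of its 5 probes.

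TGFB1, the best known of the ligands, was higher in treated cells by a small amount. On replicates 1 to 4 the raw signal of its probe was 322, 249.8, 228 and 274 in the control channel and 384, 312, 278 and 289.5 in the treated channel. The treated channel was the brighter on every array, although the ranges of the 2 groups overlapped, because replicate 1 was bright and replicate 3 dim in both channels. After normalisation the log2 signals were 8.25, 8.05, 8.20 and 8.16 in control and 8.35, 8.26, 8.33 and 8.30 in treated cells, and here the ranges no longer overlapped. The log2 ratios were 0.10, 0.21, 0.14 and 0.14, with a mean of 0.15 ± 0.0447 (SD, n = 4), a 95% confidence interval of 0.05 to 0.24 and an adjusted p of 0.0489. Without any of the arrays the adjusted p was 0.129 (replicate 1), 0.110 (replicate 2), 0.112 (replicate 3) or 0.140 (replicate 4), with means of 0.12 to 0.16. Over all tested probes the fits without replicate 1, 3 or 4 left 2, 38 or 0 calls, and that without replicate 2 left 3899. A call lost without replicate 1, 3 or 4 is therefore not particular to TGFB1.

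TGFB2 was read by a pair of probes that lie side by side. The log2 ratios of A_69_P008512 were 0.09, 0.11, 0.08 and 0.17, with a mean of 0.11 ± 0.0378 and an adjusted p of 0.0830. All arrays were above 0, but the probe did not pass the threshold. The adjoining probe A_69_P008511, at chr30:4092888-4092947, gave 0.03, -0.02, 0.04 and -0.06, with a mean of 0.00 ± 0.0479 and an adjusted p of 0.959. Raw signals of both lay far above the background, between 3736 and 8591. TGFB3, at raw signals of 208.5 to 367, had log2 ratios of -0.01, -0.14, 0.22 and 0.04. Its arrays were split around 0 (mean 0.03 ± 0.149, adjusted p = 0.791), and the 95% interval ran from -0.12 to 0.17.

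**Figure D2:**
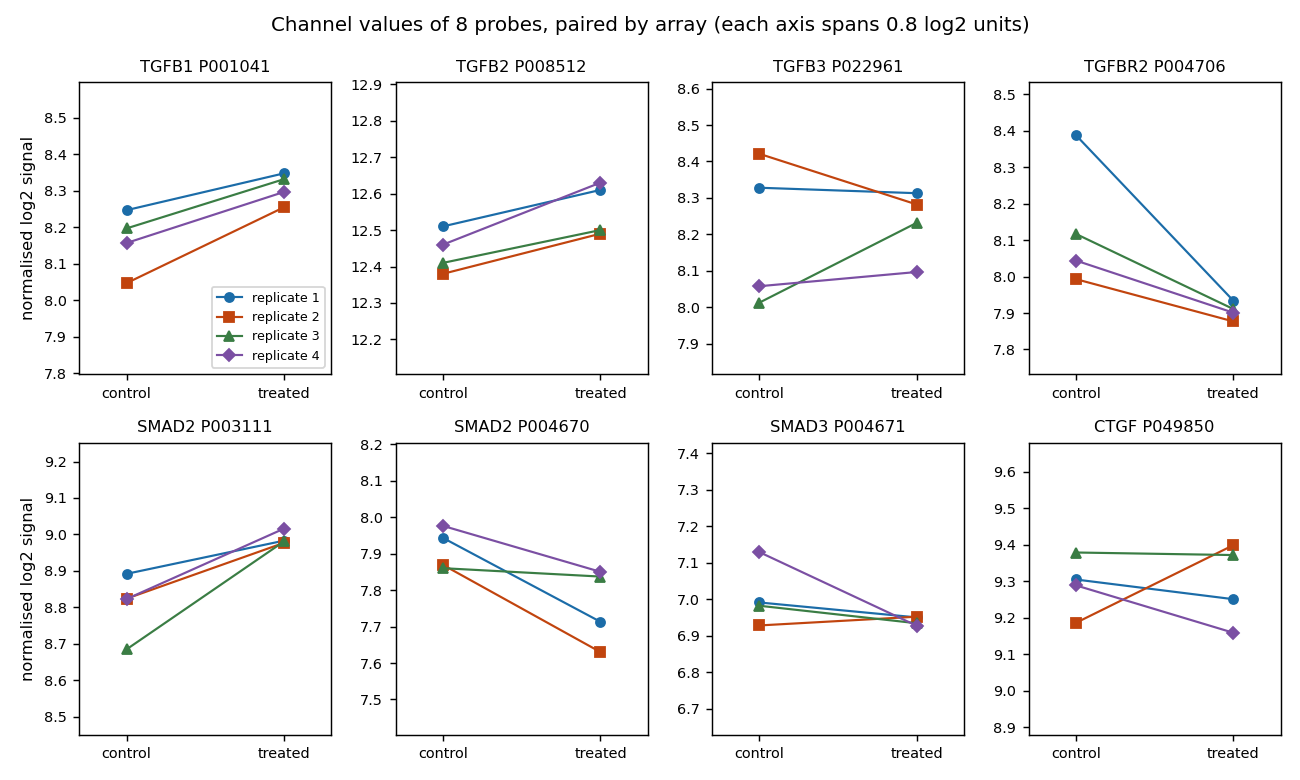
Normalised log2 signal in the control and the treated channel of the same array for 8 probes, with a line for each of the 4 arrays; every vertical axis spans 0.8 log2 units but starts at its own level. All lines rise for TGFB1, for TGFB2 A_69_P008512 and for SMAD2 A_69_P003111, all fall for TGFBR2 A_69_P004706 and SMAD2 A_69_P004670, and the lines of TGFB3, SMAD3 and CTGF run both ways.

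TGFBR2, the receptor that binds the ligand, had a mean log2 ratio below 0 with each of its 6 probes, from -0.23 to -0.04, and none passed the threshold. Only A_69_P004706 and A_69_P002850 were below 0 on all arrays. The raw signals of A_69_P004706 were 356, 247, 231 and 262 in control and 269, 236.5, 197 and 216 in treated cells. Its log2 ratios were -0.45, -0.12, -0.21 and -0.14, with a mean of -0.23 ± 0.154, a 95% interval of -0.38 to -0.08 and an adjusted p of 0.0509, just outside the threshold. Replicate 1 carried the lowest value, and without it the mean was -0.15 with an adjusted p of 0.137 (2 calls over all tested probes). Without replicate 2 the mean was -0.27 and the adjusted p 0.0459 (3899 calls over all tested probes). A_69_P002850 gave -0.22, -0.17, -0.05 and -0.15 (mean -0.15 ± 0.0693, adjusted p = 0.0575). This probe and the 4 others of TGFBR2 are copies of nearly the same stretch, chr16:53263710-53263776, a window of 67 bases of which all 5 share 53, and their means ran from -0.15 to -0.04. The other 4 were above 0 on replicate 3 (0.01 to 0.10) and below 0 on the remaining arrays. Raw signals of the 5 were 180.5 to 341 in control and 184 to 313 in treated cells. Since they read nearly the same bases, they are not 5 independent measurements.

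TGFBR1, the receptor recruited by TGFBR2 and named ALK5 in the annotation, had means above 0 with all 6 probes, from 0.03 to 0.21. Only 3 of them were bright enough to be tested, and none passed. Their treated channel cleared background on each of the 4 arrays but the control channel on only 2 or 3. They were therefore tested only through the channel in which they were the brighter after normalisation, and none is left when both channels are required. The highest of these, A_69_P001856 at chr25:29681929-29681988, gave 0.04, 0.17, 0.22 and 0.37 (mean 0.20 ± 0.137, adjusted p = 0.0590), at raw signals of 115 to 162 in control and 114 to 179.5 in treated cells. A_69_P004702 gave 0.06, 0.04, 0.01 and 0.19 (mean 0.08 ± 0.0778, adjusted p = 0.258). A_69_P115006 gave -0.05, 0.02, 0.16 and 0.38 (mean 0.13 ± 0.191, adjusted p = 0.251), and without replicate 4 its mean was 0.04. It passed as higher without background correction (mean 0.35, adjusted p = 0.0409). Replicate 4 was the highest with each of the 3. Among the untested probes A_69_P004703 had a mean of 0.21 and passed as higher (adjusted p = 0.0371) when no filter on dim probes was used. The size of the ratio moved with the processing. For A_69_P001856, A_69_P004702 and A_69_P115006 the mean log2 ratios were 0.17, 0.12 and 0.35 without background correction and 0.31, 0.13 and 0.24 with normexp at offset 0. With Agilent's processed signals, which differ in background correction and in dye normalisation, they were 0.52, 0.44 and 0.65.

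SMAD2, phosphorylated by the active receptor, gave opposite directions at its separate probe positions. The probe A_69_P003111, at chr8:59880716-59880775, had raw signals of 533, 425.5, 313 and 417 in control and 628, 547, 444 and 497.5 in treated cells. The treated channel was the brighter on each array. Its log2 ratios were 0.09, 0.15, 0.30 and 0.19, with a mean of 0.18 ± 0.0863, a 95% interval of 0.07 to 0.29 and an adjusted p of 0.0425. The adjusted p without replicate 1, 2, 3 or 4 was 0.103, 0.0606, 0.116 or 0.138, with means of 0.15 to 0.21. Of these fits only that without replicate 2 kept many calls over all tested probes (3899).

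The 5 other SMAD2 probes lie 7198 bases away, packed into the 64 bases of chr8:59887974-59888037, and share the 56 bases in capitals above. Their means ran from -0.15 to -0.05, with adjusted p from 0.0750 to 0.681, and none passed the threshold. Their raw signals were 175.5 to 255 in control and 178 to 246 in treated cells. The lowest, A_69_P004670, gave -0.23, -0.24, -0.02 and -0.13 (mean -0.15 ± 0.102, adjusted p = 0.0750). Averaged over the 5, the log2 ratios were -0.23, -0.20, 0.07 and -0.06, so that replicate 3 alone was above 0. The difference between A_69_P003111 and this average was 0.32, 0.36, 0.23 and 0.26 on replicates 1 to 4, with a mean of 0.29 ± 0.0579. It was above 0 on all 4 arrays, but an exact two-sided sign-flip permutation test over 4 arrays cannot go below p = 0.125, which it gave. This comparison, and the same for TGFBR2 and SMAD3, was chosen after the probe positions and values had been seen (3 tests, Benjamini-Hochberg adjusted p = 0.125 for each). Under the 16 other settings tried the SMAD2 difference lay between 0.27 and 0.42. Those that alter only the test or the filter cannot move it from 0.29, so they say nothing about its stability. The highest value, 0.42, came from Agilent's processed signals and from the deposited series matrix values, which are identical to them.

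In TGFBR2 the separate probe A_69_P004706, 713 bases from the 5 overlapping ones, had lower ratios than their average by -0.24, -0.02, -0.25 and -0.01 (mean -0.13 ± 0.134, exact sign-flip permutation p = 0.125). Both positions of TGFBR2 had means below 0, whereas those of SMAD2 lay on opposite sides.

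**Figure D3:**
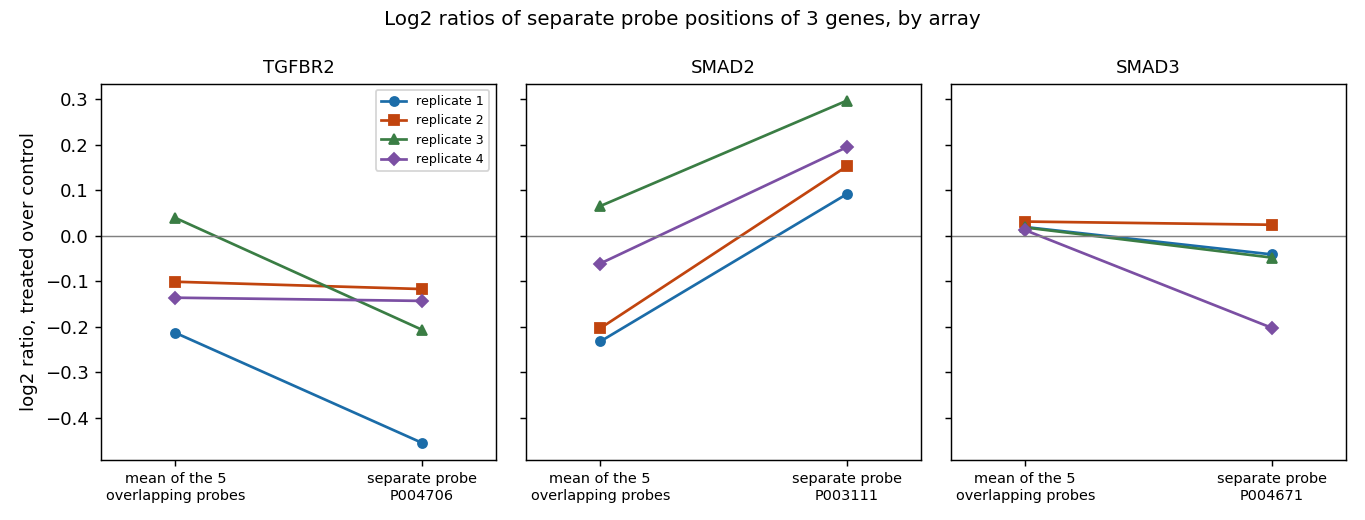
Log2 ratio (treated over control) on each of the 4 arrays for the mean of the 5 overlapping probes and for the separate probe of TGFBR2, SMAD2 and SMAD3. The lines of SMAD2 all rise, by 0.23 to 0.36, those of TGFBR2 fall by very unequal amounts, and those of SMAD3 stay near 0 apart from replicate 4; 4 of the 5 overlapping SMAD3 probes were too dim to be tested.

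SMAD3, the other receptor-regulated SMAD, was near the limit of detection. Of its 6 probes 2 were tested. A_69_P004671 had raw signals of 116.5 to 145 in control and 90.4 to 106 in treated cells, and log2 ratios of -0.04, 0.02, -0.05 and -0.20 (mean -0.07 ± 0.0957, adjusted p = 0.354). A_69_P003887 had log2 ratios of 0.12, 0.09, -0.03 and 0.09 (mean 0.07 ± 0.0650, adjusted p = 0.296). The treated channel of this probe cleared background on each of the 4 arrays and the control channel on 3. It too was thus tested only through the channel with the higher normalised mean. Its raw signal in that channel was the lower on every array. Neither passed, and the 4 untested probes that overlap the second within 66 bases had means from -0.13 to 0.11. Raw signals over these 5 were 80.9 to 133 in control and 67.2 to 112 in treated cells. With Agilent's processed signals A_69_P004671 passed as lower, with a mean of -0.35 and an adjusted p of 0.0376. SMAD7, which is itself a target of the pathway, could not be tested. Its probes A_69_P003116 and A_69_P004691 were well above background on 1 and 0 arrays in red and on 3 and 1 in green, with mean log2 ratios of -0.09 ± 0.105 and -0.03 ± 0.0648. The raw signals of A_69_P003116 were 170.1, 110.3, 104 and 129 in control and 177, 83.2, 71.0 and 89.95 in treated cells. Replicate 1 was the brightest in both channels and the only array with a ratio above 0 (0.07, against -0.17, -0.10 and -0.14).

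CTGF (now CCN2), a secreted matrix protein and a classical target of TGF-beta, did not pass with any probe. Its 5 probes overlap within 67 bases at chr10:72916490-72916556. The values of A_69_P049850 are given in full, with raw signals of 713, 544, 505 and 573 in control and 769.5, 744, 588 and 560.3 in treated cells. Its log2 ratios were -0.06, 0.21, -0.01 and -0.13, with a mean of 0.01 ± 0.147, a 95% interval of -0.14 to 0.15 and an adjusted p of 0.957. Replicate 2 alone was above 0. The means of the other 4 probes ran from 0.03 to 0.10 with adjusted p of 0.269 to 0.791, and each was highest on replicate 2 (0.22 to 0.29). Without replicate 2 the means of 3 of the 5 probes were below 0, namely -0.01 (A_69_P049846), -0.06 (A_69_P049848) and -0.06 (A_69_P049850). Among the 8140 other gene names with a tested probe, those whose ratios on the 4 arrays lay nearest to CTGF by Euclidean distance were CCDC77 (0.0486), FLRT2 (0.0548) and ATF6 (0.0672). The distances were taken from A_69_P049850 alone. With 8140 genes and 4 values each, close neighbours are found by selection, and a link to CTGF was not tested.

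The wider pathway was described with 87 further genes in 7 lists, of which 74 were on the array by name and 61 were tested at their brightest probe. Of these 7 were higher and 1 lower, or 13.1%, against 17.3% of all 8141 gene symbols tested in the same way. The passing genes lay in 3 of the 7 lists.

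Among 5 tested ligands and antagonists of the TGF-beta superfamily all means were above 0 (median 0.22), and 3 passed. BMP4, a bone morphogenetic protein ligand, had log2 ratios of 0.19, 0.27, 0.19 and 0.29 (mean 0.23 ± 0.0542, adjusted p = 0.0210), and all of its 9 probes passed as higher. Whether the probes of BMP4 or of the other pathway genes overlap was not checked, so such probe counts may not be independent measurements. CHRD (chordin), which binds and blocks bone morphogenetic proteins, had a mean of 0.22 ± 0.101 (adjusted p = 0.0340). Its only probe was dim, with normalised log2 signals of 6.64 to 7.10 in control and 6.79 to 7.42 in treated cells. When both channels had to clear background, 6 of the pathway genes passed as higher in place of 7. Whether the gene lost there was CHRD was not checked, so its call may rest on the treated channel alone. BMP2, a ligand related to BMP4, rose by 0.21 ± 0.104 (adjusted p = 0.0372) at its brightest probe, and 1 of its 2 probes passed. None of the 6 tested genes of latency and activation passed (median -0.01). The smallest adjusted p there were 0.299 for LTBP1, a binding protein that holds latent TGF-beta in the matrix (mean -0.07), and 0.329 for the integrin subunit ITGAV (mean 0.06).

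Likewise none of the 7 other receptors (median 0.08) and none of the 10 other SMADs and partners (median 0.00) passed. The values nearest the threshold were those of ACVR1B, an activin type I receptor (0.10 ± 0.0549, adjusted p = 0.123), BMPR2, the type II receptor of bone morphogenetic proteins (0.09 ± 0.0912, adjusted p = 0.203), SMAD6, an inhibitory SMAD (-0.11 ± 0.0638, adjusted p = 0.108) and SKIL, a repressor of SMAD targets (0.10 ± 0.0234, adjusted p = 0.110). Of 11 genes that turn over receptors and SMADs, 3 were higher and none lower (median 0.02). USP11, a deubiquitinase, had log2 ratios of 0.41, 0.35, 0.32 and 0.24 (mean 0.33 ± 0.0733, adjusted p = 0.0153). FKBP1A, which binds the type I receptor and keeps it inactive, had 0.22, 0.30, 0.21 and 0.24 (mean 0.24 ± 0.0396, adjusted p = 0.0186), and 9 of its 10 probes passed as higher. STUB1, a ubiquitin ligase, rose by 0.25 ± 0.0791 (adjusted p = 0.0221). STRAP, an inhibitor of TGF-beta signalling that binds the receptors, did not pass at its brightest probe (-0.16 ± 0.0917, adjusted p = 0.0590), while 2 of its 3 probes passed as lower. In the list of SMADs and partners, 1 of the 6 probes of SMAD4 passed as higher, but not the brightest (-0.04 ± 0.121, adjusted p = 0.584). STRAP and SMAD4 were named for these probe counts after their values were seen.

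Among the target genes, none of 11 matrix and contractile genes passed at its brightest probe (median 0.14). BGN, the matrix proteoglycan biglycan, had log2 ratios of 0.11, 0.19, 0.38 and 0.12 (mean 0.20 ± 0.124, adjusted p = 0.0519) at its brightest probe, and 2 of its 3 probes passed as higher. COL1A2, a chain of type I collagen, had 0.14, -0.03, 0.60 and 0.50 (mean 0.30 ± 0.299, adjusted p = 0.0914) at its brightest probe. The arrays disagreed here: replicate 2 was the lowest for COL1A2. The probes of COL1A2 disagreed as well: only 4 of the 9 tested had a mean above 0, and none passed. Of 11 transcription factor and cell cycle targets, BHLHE40, a repressor of transcription, was higher with log2 ratios of 0.34, 0.44, 0.52 and 0.62 (mean 0.48 ± 0.118, adjusted p = 0.0125). ID2, an inhibitor of basic helix-loop-helix factors that is itself known as a target of bone morphogenetic proteins, was lower with -0.27, -0.08, -0.14 and -0.29 (mean -0.19 ± 0.103, adjusted p = 0.0449). Of the 3 ID2 probes 2 passed as lower. ID2 did not pass as lower without background correction, with normexp at offset 0, with median centring, after subtraction of a running median over signal, without the array as a block or in the methods' t-test after adjustment, all of which left 0 lower genes. The median of this list was -0.07. Without replicate 1, 3 or 4 none of the 61 genes passed, and without replicate 2 there were 12, whereas over all probes these fits left 2, 38, 0 and 3899 calls.

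**Figure D4:**
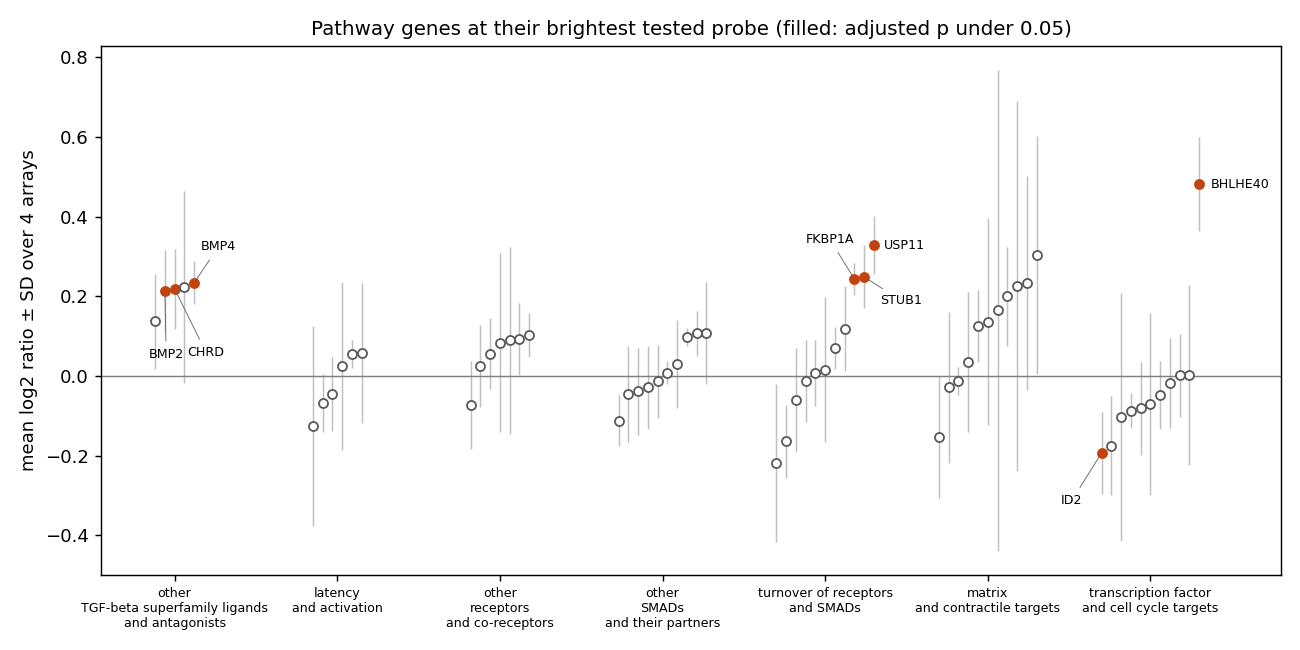
Mean log2 ratio (treated over control, bars: SD over 4 arrays) of the 61 tested genes of the 7 pathway lists, each at its brightest tested probe; filled symbols have an adjusted p under 0.05. The 8 filled genes lie in 3 lists, and ID2 is the only filled gene below 0.

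The labelled cell type was checked against marker lists. All 11 myogenic markers on the array were tested, and 8 were higher and none lower (median 0.25). That is 72.7%, against 17.3% of all 8141 gene symbols tested in the same way, higher or lower. The summed normalised signal of the myogenic markers ranged from 238600 to 268900 in control and from 296600 to 338600 in treated cells. The sum follows mostly its brightest probes, those of ACTC1 (log2 signal 17.15 to 17.34 in control) and MYH3 (15.74 to 15.95), and does not describe the list evenly. In bulk RNA a change in the number of cells of a type and in the RNA per cell cannot be told apart. Of the fibroblast markers 7 of 8 were tested, with THY1 higher (0.28 ± 0.141), LUM lower (-0.43 ± 0.0997) and summed signals of 207700 to 263000 in control and 255000 to 283900 in treated cells. Those that passed were 28.6% of the tested fibroblast markers. The fibroblast sum follows mostly COL1A2 (log2 signal 17.23 to 17.58 in control), which did not pass. PDGFRA was not well above background. None of the 4 adipocyte and 5 endothelial markers on the array was bright enough to be tested. Of 5 smooth muscle markers 2 were tested and none passed, and of 4 blood markers 2 were tested, with CD14 lower (-0.17 ± 0.0611). The part of these shifts in the values of the TGF-beta genes was not tested.

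Array to array, the ratios of all tested probes correlated between 0.174 (replicates 2 and 3) and 0.697 (replicates 3 and 4), and those of the 23 probes between 0.0409 and 0.702. Between 54.9% and 61.4% of gene probes were well above background in a channel, and no gene spot was saturated. The number of arrays limits the precision.

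**Figure D5:**
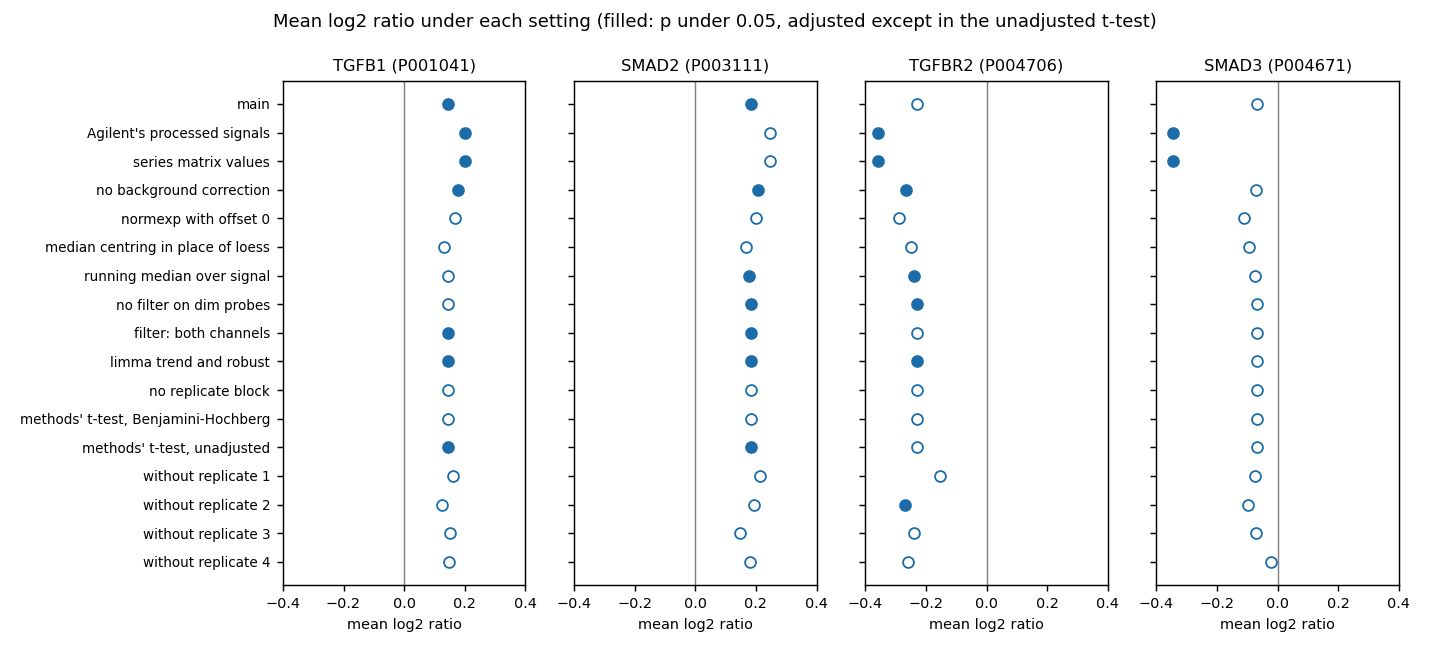
Mean log2 ratio (treated over control) of 4 probes in the fit reported here (main) and under 16 other settings; filled symbols have a p under 0.05. The values keep their sign throughout for these probes, though settings that alter only the test or the filter cannot move them. The calls of TGFB1, SMAD2 and TGFBR2 come and go, and SMAD3 passes only with Agilent's processed signals and the identical series matrix values.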

How the data were processed

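The deposited files hold the spot intensities of each array (mean signal and background median of both channels), as the authors' scans gave them. Per the file headers the software was Agilent Feature Extraction (version 10.10.1.1). The deposited processed intensities and the log10 ratios of the series matrix are the authors' background-subtracted, dye-normalised values and served as alternatives (largest difference between both sources 0). Here the mean intensities were corrected with normexp (offset 50) and normalised by loess within each array in limma version 3.58.1 (R version 4.3.3), control spots having weight 0. Spots with an outlier mark were left out, and spots of a probe were averaged. A probe was tested when well above background on all 4 arrays in red or in green (24230 probes, 55.6%). The 4 log2 ratios were tested against 0 with lmFit and eBayes, two-sided, with Benjamini-Hochberg adjustment over all tested probes and a threshold of 0.05. The methods' t-test and the other settings were run as alternatives. Channel levels are log2 signals after loess and Aquantile normalisation. Levels of different probes were not compared, but the marker sums add them and so follow the brightest probes. The test was checked on simulated data.

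The members and the gene lists were chosen with earlier results of these data known. Named genes were every probe of the members, at most 4 passing genes of each list with the smallest adjusted p (for a list with none, the 2 with the smallest, as values), and the 3 genes nearest to CTGF. Printed probe sequences were to be limited to those within a RefSeq protein. No protein table was used here, so probes with an open reading frame were picked after the files had been opened, on a judgement that they are coding which was not checked against an annotation.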

Additional observations from a re-analysis of the deposited data

Results flagged for a closer look

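Of 35 sets of 4 log2 ratios (1 per probe of the 9 genes), 2 held an array far from the other 3 by Dixon's test, a mark that chance gives to about 1 in 20 sets. On replicate 2 the CTGF probe A_69_P049848 had a log2 ratio of 0.29, against -0.08 to -0.04 on the other arrays. On replicate 2 the SMAD3 probe A_69_P003890, which was too dim to be tested, had 0.15, against 0.04 on each of the other arrays.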

How the results depend on the processing

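The number of member probes past the threshold was 2 in the fit reported and 2 or 3 with Agilent's processed signals, the series matrix, no background correction, the running median, no filter, the filter on both channels or trend and robust estimation, though not always the same probes: TGFBR2 A_69_P004706 passed as lower under 7 of the 15 adjusted alternatives and TGFB1 and SMAD2 A_69_P003111 as higher under 5 each. These settings had 3735 to 5298 calls over all probes, against 4137 of 24230 in the fit reported. The 5298 were among 43603 probes, without the filter. The number was 0 with normexp at offset 0 (3402 over all), with median centring in place of loess (12) and with the methods' t-test after Benjamini-Hochberg adjustment (5). It was also 0 without the replicate block of the array (594). The unadjusted t-test gave 4 (6930 over all). With an array left out it was 1 without replicate 2 (3899 over all) and 0 without replicate 1, 3 or 4 (2, 38 and 0 over all). The series matrix values equal Agilent's processed signals, so these tallies and those below count that analysis under 2 names. The fold limit of 1.3 was passed by 0 under every alternative. The count of pathway genes, 8 in the fit reported, was 0 with median centring and with the adjusted t-test and 3 with no replicate block. It was 15 with the unadjusted t-test (6930 calls over all probes). The mean over a gene's probes gave 10 (8 higher and 2 lower), against 1778 of all 8141 genes. With an array left out the count was 0 to 12. Over the single tested probes 366 of 412 values kept direction and call, 12 gained and 20 lost the threshold. All 20 losses were of TGFB1 and SMAD2 A_69_P003111, the only probes with a call to lose. The 366 is no measure of stability, since the other probes had no call in the fit reported. Settings that alter only the test or the filter also cannot move a value. A further 14 values changed sign, none past the threshold on either side. Those were TGFB2 A_69_P008511 (0.006 with Agilent's signals and the series matrix, 0.002 without background correction, 0.005 with median centring, -0.018 to 0.016 with an array left out), SMAD2 A_69_P004666 (0.01 without background correction, -0.11 to 0.028 with an array left out), TGFB3 (-0.039 to 0.081), CTGF A_69_P049846 (-0.014 to 0.082), A_69_P049848 (-0.057 to 0.066) and A_69_P049850 (-0.064 to 0.05), each with an array left out, and CTGF A_69_P049850 with normexp at offset 0 (-0.001) and median centring (-0.016). The cause was not tested. The limits are 4 arrays, 1 slide and no dye swap.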
